A study of Mus musculus with 9 samples.

Results

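The genes described here are 10 genes of brown fat heat production, Ucp1, Cidea, Dio2, Elovl3, Cox8b, Cox7a1, Ppargc1a, Prdm16, Zic1 and Gk, read by symbol out of 55453 listed genes in mRNA of mouse aorta. The 9 libraries came from 9 C57BL/6J mice, 3 Itga8-Cre, 3 Myh11-Cre and 3 Wild Type. The first line has Itga8-CreERT2, whose Cre recombinase is named for the integrin alpha 8 gene and depends on tamoxifen. The second has Myh11-CreERT2, named for the smooth muscle myosin heavy chain gene and likewise inducible. Wild Type mice were the controls, and all 3 groups share the strain. The labels state no age, sex, tamoxifen dosing, zygosity or batch. The series set the new Cre line beside the older one, and brown fat was not its subject.

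Brown fat cells burn fatty acids in dense mitochondria and release the energy as heat. Cold acts through noradrenaline, beta-adrenergic receptors and cyclic AMP, which free fatty acids from the lipid droplet and switch on Ucp1, the proton channel that uncouples respiration from ATP synthesis. In mice the fat around the thoracic aorta resembles brown fat, and a dissected aorta can carry some of it. Labels for these samples name the tissue only as aorta.

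The tissue label and the presence of fat were both visible in the libraries. Acta2, the smooth muscle actin of the vessel wall, was at 171 to 1038 CPM, in which each count is set to a common library total after TMM scaling, and the fat cell hormone Adipoq was at 348 to 757 CPM. Total counts ran from 31419238 to 42497543 per library. Where 3 values of a genotype are listed, they are those of mouse 1, 2 and 3 as numbered in the labels. Other tissue was uneven between mice of 1 genotype, with Acta1 of skeletal muscle at 4.57 to 3636 CPM and Rag1 of developing lymphocytes at 0.443 to 477 CPM. In whole tissue, more fat cells and more RNA per fat cell cannot be told apart. The labels call the samples separate mice and do not say how they were matched, so the p-values measure the spread between these mice.

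Of the 10 genes, 9 passed the low-count filter and were tested, and these 9 are the basis of every count of genes below unless 10 are named. Zic1, a transcription factor of interscapular brown fat lineage, was the exception. It had 2, 1 and 2 counts in the Itga8-Cre mice, 2, 8 and 1 counts in the Myh11-Cre mice and 2, 2 and 0 counts in the Wild Type mice. A count of 0 in Wild Type 3 allows up to 3 counts, or 0.0781 CPM, as counting error alone. Zic1 was therefore at or near the limit of detection in each library, and no fold is given for it.

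Levels compared between genes are in RPKM, CPM per kilobase of all exons of the gene in GENCODE M21. Ucp1 had the highest mean level over the 9 libraries, 1624 RPKM, with single libraries from 824 to 3030 RPKM. Cox8b followed at 1225 RPKM (740 to 1725), but it lay below Ucp1 in 7 of 9 libraries only. It is a subunit isoform of cytochrome c oxidase found in heart, skeletal muscle and brown fat. Cidea, a lipid droplet protein that enlarges droplets, had 748 RPKM (407 to 1123), and Cox7a1, another such oxidase isoform, had 411 RPKM (280 to 541). Elovl3, the elongase of very long chain fatty acids, had 56.1 RPKM and varied most, from 8.71 to 150.3 RPKM. Gk, glycerol kinase, which returns glycerol to triglyceride synthesis, had 30.6 RPKM. It was below Elovl3 in 5 of 9 libraries, so these neighbours in the order were not separated. Dio2, the deiodinase that makes active thyroid hormone, had 28.6 RPKM and was below Gk in 7 of 9 libraries. The coactivator Ppargc1a had 7.38 RPKM and the coregulator Prdm16 had 4.42 RPKM. Read per longest transcript instead of per exon union, Gk came to 54.7 RPKM and the order of the genes stayed as given.

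Ucp1 (ENSMUSG00000031710.4, chr8:83290352-83298452, GRCm38) had 4957, 1348 and 2857 CPM in the Itga8-Cre mice, 4411, 1954 and 3276 CPM in the Myh11-Cre mice and 1971, 1454 and 1691 CPM in the Wild Type mice. The Wild Type libraries lay close together, and each Cre line held libraries well above them and 1 library, mouse 2, within or below their range. The mean was 3054 ± 1812 CPM in Itga8-Cre aortae, 3214 ± 1230 CPM in Myh11-Cre aortae and 1705 ± 259 CPM in Wild Type aortae (SD, n = 3 each). The log2 fold change against Wild Type was 0.84 (SE 0.47) in Itga8-Cre and 0.91 (SE 0.47) in Myh11-Cre, with adjusted p of 0.699 and 0.359 by edgeR's quasi-likelihood test with Benjamini-Hochberg adjustment. Without Itga8-Cre 1 the first became 0.3, and without Itga8-Cre 2 it became 1.18. Neither difference exceeded the spread between mice by this test, which left the libraries unpaired. With mouse number as a block the values were 0.66 (SE 0.269) and 0.82 (SE 0.267), with edgeR adjusted p of 0.652 and 0.202. Here and below, the Cre lines are set against the same 3 Wild Type libraries, so their fold changes are not separate evidence.

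**Figure D1:**
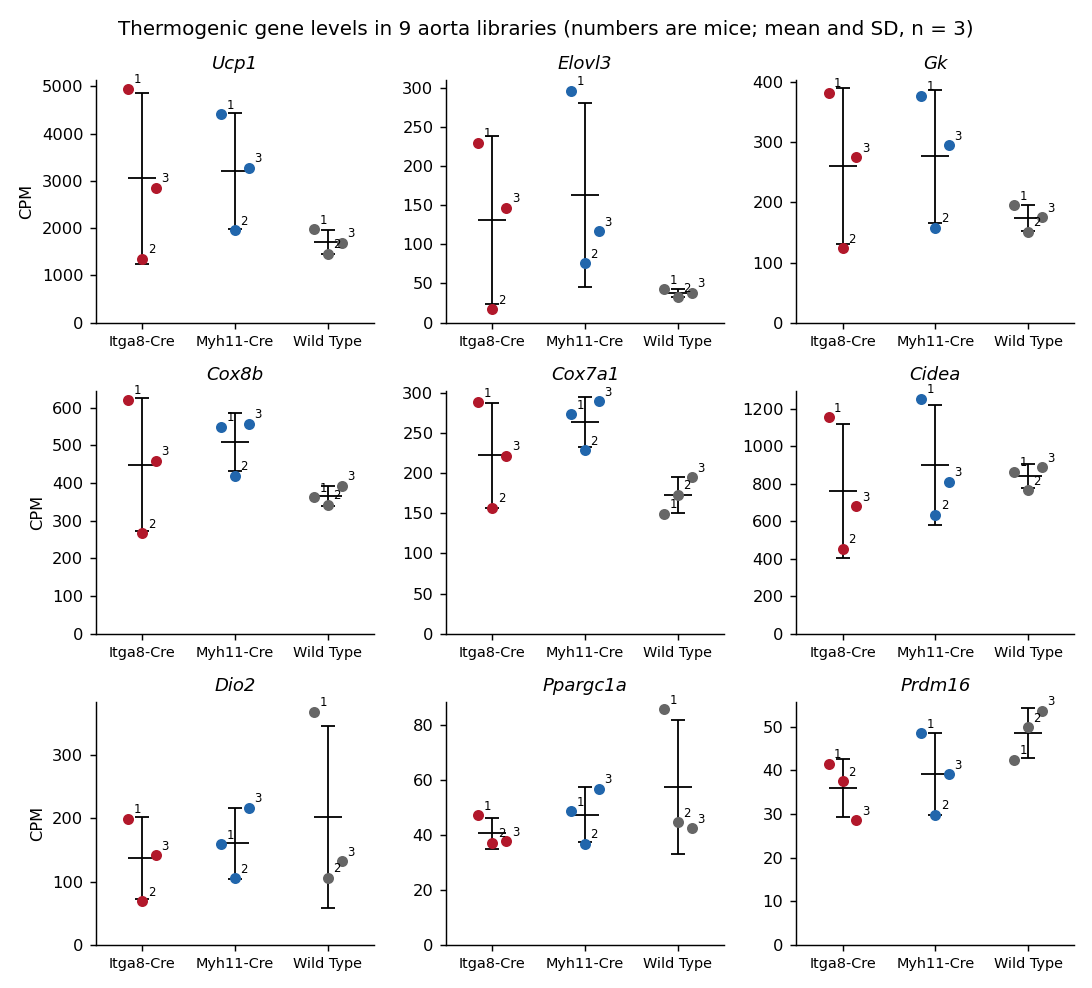
Level of each of the 9 tested thermogenic genes in CPM (vertical axes, from 0) in Itga8-Cre, Myh11-Cre and Wild Type aortae. Each point is a mouse, numbered as in the labels, and bars are the mean and SD of 3 mice. The highest Ucp1 was 4957 CPM among the Itga8-Cre mice and 4411 CPM among the Myh11-Cre mice, against at most 1971 CPM among the Wild Type mice.

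Elovl3 (ENSMUSG00000038754.5, chr19:46131897-46135694) had the widest range of the 9 tested genes. It stood at 230.2, 17.2 and 146.8 CPM in the Itga8-Cre mice, 296.8, 76.0 and 117.2 CPM in the Myh11-Cre mice and 42.5, 32.1 and 38.0 CPM in the Wild Type mice. All 3 Myh11-Cre libraries lay above all 3 Wild Type libraries, while Itga8-Cre 2 lay below them. The log2 fold change was 1.81 (SE 0.81, edgeR adjusted p = 0.699) in Itga8-Cre and 2.12 (SE 0.82, adjusted p = 0.268) in Myh11-Cre. Without Itga8-Cre 2 the first became 2.31 (edgeR adjusted p = 0.562), and without Itga8-Cre 1 it became 1.13 (adjusted p = 0.584). The second became 1.36 (edgeR adjusted p = 0.394) without Myh11-Cre 1. Exons of Pitx3 on the opposite strand overlap Elovl3, and Pitx3 had 3 to 59 counts per library.

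Gk (ENSMUSG00000025059.16, chrX:85701937-85776819) kept the order of Ucp1 within each genotype. It had 383.2, 124.1 and 275.7 CPM in the Itga8-Cre mice, 377.6, 157.9 and 295.4 CPM in the Myh11-Cre mice and 195.6, 151.0 and 175.6 CPM in the Wild Type mice. Mouse 1 was highest and mouse 2 lowest in each of the 3 genotypes. The log2 fold change was 0.58 (SE 0.42) in Itga8-Cre and 0.67 (SE 0.42) in Myh11-Cre, with edgeR adjusted p of 0.726 and 0.436.

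The oxidase isoforms differed less. Cox8b (ENSMUSG00000025488.9, chr7:140898945-140900446) had 620.9, 266.4 and 459.1 CPM in the Itga8-Cre mice, 548.7, 419.2 and 557.4 CPM in the Myh11-Cre mice and 361.9, 342.1 and 393.0 CPM in the Wild Type mice. Cox7a1 (ENSMUSG00000074218.3, chr7:30184144-30186078) had 288.3, 157.3 and 221.8 CPM in the Itga8-Cre mice, 273.5, 229.1 and 289.7 CPM in the Myh11-Cre mice and 149.6, 173.4 and 194.8 CPM in the Wild Type mice. For both genes the Myh11-Cre and Wild Type libraries did not overlap, and the Itga8-Cre and Wild Type libraries did. The log2 fold change of Cox7a1 in Myh11-Cre was 0.61 (SE 0.22), with an unadjusted p of 0.0216 and an edgeR adjusted p of 0.251. That of Cox8b in Myh11-Cre was 0.48 (SE 0.28, adjusted p = 0.412). In Itga8-Cre the values were 0.37 (SE 0.22) for Cox7a1 and 0.3 (SE 0.28) for Cox8b, and Cox8b stood at -0.01 without Itga8-Cre 1.

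Striated muscle uses these oxidase isoforms too, and muscle RNA was uneven among the libraries. The summed level of 20 fast skeletal muscle markers was 406 to 10000 CPM in Itga8-Cre aortae, 365 to 22960 CPM in Myh11-Cre aortae and 1363 to 2745 CPM in Wild Type aortae. That of 9 slow and cardiac muscle markers was 1795 to 7555 CPM in Itga8-Cre aortae, 2618 to 8621 CPM in Myh11-Cre aortae and 1443 to 4497 CPM in Wild Type aortae. All 20 fast markers had a higher mean in each Cre line than in Wild Type, and so had 7 of 9 slow and cardiac markers in Itga8-Cre and 9 of 9 in Myh11-Cre, with edgeR calling 0. The part of muscle RNA in the values of Cox8b and Cox7a1 was not tested. Of the 3 libraries with the most Cox8b, Itga8-Cre 1 and Myh11-Cre 1 had the lowest sums of fast muscle markers and Myh11-Cre 3 had the highest sum. Pearson's r with the mean log2 CPM of the fast markers was -0.244 for Cox8b and -0.109 for Cox7a1 over all 9 libraries. Without Itga8-Cre 1 and Myh11-Cre 1 it was 0.721 and 0.924. Against its widespread counterpart Cox8a, Cox8b had a ratio of RPKM of 2.56 ± 0.232 in Itga8-Cre aortae, 2.69 ± 0.452 in Myh11-Cre aortae and 2.29 ± 0.183 in Wild Type aortae (SD, n = 3). The ratio of Cox7a1 to Cox7a2 was 2.03 ± 0.0508 in Itga8-Cre aortae, 2.02 ± 0.2 in Myh11-Cre aortae and 1.74 ± 0.301 in Wild Type aortae. For Cox7a1 to Cox7a2, all Itga8-Cre libraries lay above all Wild Type libraries (exact permutation p = 0.1, two-sided, the smallest that 3 against 3 mice allow), and the other comparisons with Wild Type of both ratios gave an exact p of 0.3.

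Cidea (ENSMUSG00000024526.9, chr18:67343604-67367785) had a lower mean than Wild Type in Itga8-Cre and a slightly higher one in Myh11-Cre. It had 1153, 453.5 and 679.7 CPM in the Itga8-Cre mice, 1252, 635.2 and 810.5 CPM in the Myh11-Cre mice and 863.6, 766.1 and 887.2 CPM in the Wild Type mice. The Wild Type values sat inside the range of each Cre line. The log2 fold change was -0.14 (SE 0.36) in Itga8-Cre and 0.1 (SE 0.36) in Myh11-Cre. The ratio of Ucp1 to Cidea in RPKM was 2.93, 2.03 and 2.87 in the Itga8-Cre mice, 2.4, 2.1 and 2.75 in the Myh11-Cre mice and 1.55, 1.29 and 1.3 in the Wild Type mice. Every library of either Cre line lay above every Wild Type library (exact two-sided permutation p = 0.1 for each line, the smallest possible). This ratio was chosen after its values were seen.

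The 3 regulators and hormone-activating genes went the other way in their group means. Dio2 (ENSMUSG00000007682.6, chr12:90724552-90738438) had 199.6, 69.3 and 141.9 CPM in the Itga8-Cre mice, 158.8, 105.4 and 216.9 CPM in the Myh11-Cre mice and 368.3, 106.2 and 132.5 CPM in the Wild Type mice. Ppargc1a (ENSMUSG00000029167.13, chr5:51454250-51567726) had 47.2, 37.1 and 37.7 CPM in the Itga8-Cre mice, 48.7, 36.8 and 56.9 CPM in the Myh11-Cre mice and 85.9, 44.6 and 42.6 CPM in the Wild Type mice. Wild Type 1 was the highest of the 9 libraries for both genes and the other Wild Type libraries were within the range of the Cre lines. The log2 fold changes of -0.56 (SE 0.54) and -0.34 (SE 0.54) for Dio2 in Itga8-Cre and Myh11-Cre became 0.19 and 0.43 without Wild Type 1. Those of Ppargc1a were -0.5 (SE 0.28) in Itga8-Cre and -0.28 (SE 0.28) in Myh11-Cre, and without Wild Type 1 they became -0.11 and 0.13. The antisense gene Gm26512 shares exons with Dio2 and had 20 to 55 counts per library.

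Prdm16 (ENSMUSG00000039410.16, chr4:154316125-154636873), a zinc finger protein that directs brown fat cell fate, had 41.5, 37.5 and 28.6 CPM in the Itga8-Cre mice, 48.5, 29.8 and 39.2 CPM in the Myh11-Cre mice and 42.4, 49.9 and 53.7 CPM in the Wild Type mice. Each Itga8-Cre value was under each Wild Type value, by a narrow gap, and the Myh11-Cre libraries overlapped them. The log2 fold change was -0.44 (SE 0.2, edgeR adjusted p = 0.699) in Itga8-Cre and -0.31 (SE 0.2, adjusted p = 0.444) in Myh11-Cre.

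**Figure D2:**
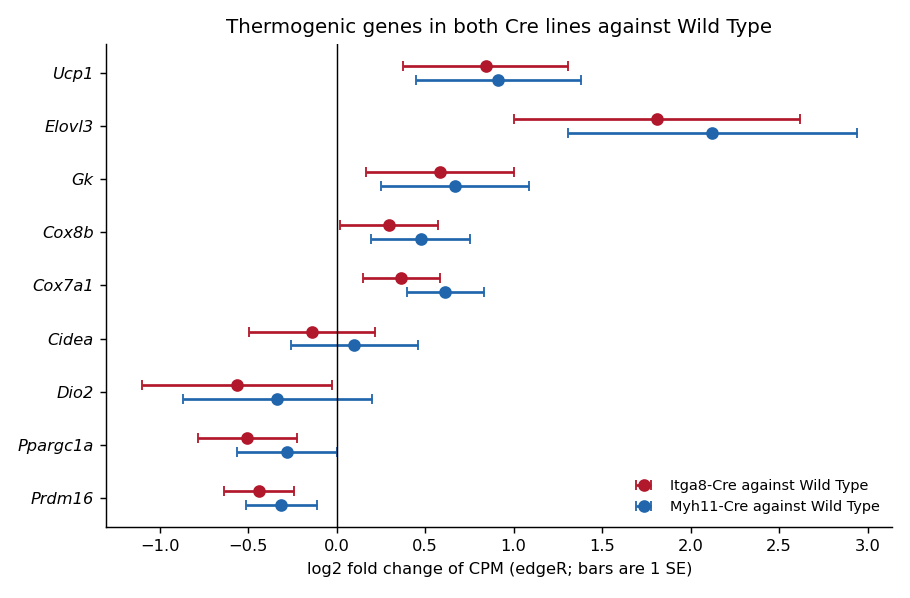
Log2 fold change of CPM (horizontal axis, edgeR, bars are 1 SE) of the 9 tested thermogenic genes in Itga8-Cre and in Myh11-Cre against the same 3 Wild Type libraries. Ucp1, Elovl3, Gk, Cox8b and Cox7a1 lie to the right of 0 in both comparisons, Dio2, Ppargc1a and Prdm16 to the left, and Elovl3 has the largest change at 1.81 and 2.12.

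Over the whole set, edgeR called 0 of the 9 tested genes in Itga8-Cre against Wild Type, 0 in Myh11-Cre against Wild Type and 0 in Itga8-Cre against Myh11-Cre. The share of all 19412 tested genes called was 0.0% in each comparison. At an unadjusted p under 0.05 there were 0, 2 and 0 of the 9 genes, where the shares of all genes were 3.97% higher and 2.81% lower in the first comparison, 6.93% higher and 9.48% lower in the second, and 7.64% higher and 1.83% lower in the third. DESeq2 called 0 of the 9 genes in each comparison, with 0.166%, 4.44% and 0.109% of all genes called. The median log2 fold change of the 9 genes was 0.3 in Itga8-Cre and 0.48 in Myh11-Cre, beside 0.04 and 0.01 over all genes tested. Non-overlapping groups were found for 1 gene in Itga8-Cre against Wild Type, Prdm16, where 5.37% of all genes were lower and 5.76% higher in this way. In Myh11-Cre against Wild Type there were 3 genes, Elovl3, Cox8b and Cox7a1, where 11.3% of all genes were higher and 14.7% lower in this way.

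Between the Cre lines the thermogenic genes differed by less than the spread between mice. In Itga8-Cre against Myh11-Cre, log2 fold changes were -0.07 (SE 0.46) for Ucp1, -0.31 (SE 0.78) for Elovl3, -0.09 (SE 0.42) for Gk, -0.18 (SE 0.28) for Cox8b and -0.25 (SE 0.22) for Cox7a1. They were -0.24 (SE 0.36) for Cidea, -0.23 (SE 0.54) for Dio2, -0.22 (SE 0.28) for Ppargc1a and -0.13 (SE 0.2) for Prdm16. All 9 were below 0, and none of the 9 genes separated the lines. Adjusted p by edgeR was 0.696 to 0.958, which does not show that the lines were alike. Of all genes, 9.65% were higher and 3.07% lower in Itga8-Cre than in Myh11-Cre without overlap.

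The mean level of general fat cell markers was not higher in the Cre lines. Adipoq had 629.5, 348.1 and 381.3 CPM in the Itga8-Cre mice, 738.7, 435.8 and 456.7 CPM in the Myh11-Cre mice and 757.1, 536.1 and 592.8 CPM in the Wild Type mice. Of 12 general fat cell markers, 11 had a lower mean in Itga8-Cre and 10 in Myh11-Cre than in Wild Type, with a median log2 fold change of -0.36 and -0.23, and edgeR called 0. Car3, a carbonic anhydrase abundant in fat, averaged 2716 CPM in Itga8-Cre aortae, 3258 CPM in Myh11-Cre aortae and 4194 CPM in Wild Type aortae. Plin4, a lipid droplet coat protein, averaged 573 CPM in Itga8-Cre aortae, 673 CPM in Myh11-Cre aortae and 811 CPM in Wild Type aortae.

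Set against Adipoq in the same library, Ucp1 lay above Wild Type without overlap in both Cre lines. There were 7.87, 3.87 and 7.49 Ucp1 counts per Adipoq count in the Itga8-Cre mice, 5.97, 4.48 and 7.17 in the Myh11-Cre mice and 2.6, 2.71 and 2.85 in the Wild Type mice. Every Cre library lay above every Wild Type library, and the Wild Type ratios spanned a narrow range. Divided by Adipoq, 18.7% of all 19412 tested genes in Itga8-Cre and 9.69% in Myh11-Cre were likewise higher without overlap. The mean log2 ratio was higher by 1.17 (2.25-fold) in Itga8-Cre and by 1.08 (2.12-fold) in Myh11-Cre than in Wild Type. The exact two-sided permutation p was 0.1 for each, the smallest that 3 against 3 mice allow, so a p under 0.05 could not be reached. Itga8-Cre and Myh11-Cre differed by 0.08, with an exact permutation p of 0.8. With Plin1, another droplet protein, in place of Adipoq, the Ucp1 ratio was 5.75, 3.56 and 5.91 in the Itga8-Cre mice, 5.56, 3.87 and 5.83 in the Myh11-Cre mice and 2.56, 2.4 and 2.72 in the Wild Type mice.

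**Figure D3:**
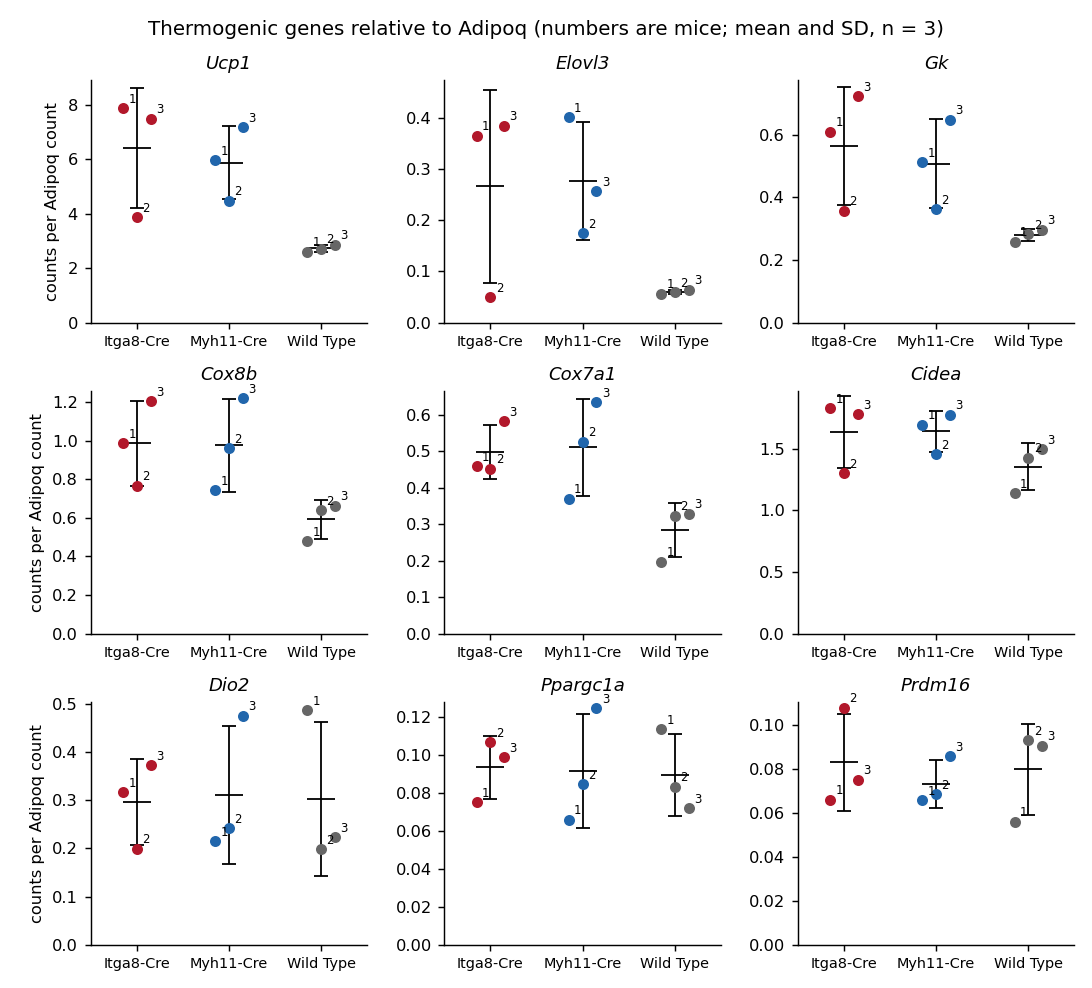
Counts of each tested thermogenic gene per count of Adipoq in the same library (vertical axes, from 0), by genotype. Points are mice, numbered as in the labels, with mean and SD of 3 mice. Ucp1 ratios were 3.87 to 7.87 in Itga8-Cre aortae, 4.48 to 7.17 in Myh11-Cre aortae and 2.6 to 2.85 in Wild Type aortae, without overlap of either Cre line with Wild Type. Of all tested genes, 18.7% in Itga8-Cre and 9.69% in Myh11-Cre were higher without overlap in this ratio.

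The same ratio was computed for the other tested genes after the data were seen. Gk had a ratio of 0.563 ± 0.188 in Itga8-Cre aortae, 0.507 ± 0.142 in Myh11-Cre aortae and 0.279 ± 0.0191 in Wild Type aortae (SD, n = 3). For Cox8b it was 0.985 ± 0.219 in Itga8-Cre aortae, 0.975 ± 0.239 in Myh11-Cre aortae and 0.593 ± 0.1 in Wild Type aortae. For Cox7a1 it was 0.497 ± 0.0732 in Itga8-Cre aortae, 0.51 ± 0.133 in Myh11-Cre aortae and 0.283 ± 0.0742 in Wild Type aortae. Along with Ucp1, these 3 genes had every library of each Cre line above every Wild Type library. Elovl3 had 0.366, 0.0494 and 0.385 in the Itga8-Cre mice, 0.402, 0.175 and 0.257 in the Myh11-Cre mice and 0.0562, 0.0599 and 0.0641 in the Wild Type mice. Its ratio was thus above Wild Type in 5 of the 6 Cre libraries, and Itga8-Cre 2 was the exception.

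For the remaining genes the ratio to Adipoq differed less. Cidea had a ratio of 1.64 ± 0.292 in Itga8-Cre aortae, 1.64 ± 0.165 in Myh11-Cre aortae and 1.36 ± 0.189 in Wild Type aortae. Dio2 had 0.296 ± 0.0883 in Itga8-Cre aortae, 0.311 ± 0.143 in Myh11-Cre aortae and 0.303 ± 0.16 in Wild Type aortae. Ppargc1a had 0.0935 ± 0.0165 in Itga8-Cre aortae, 0.0917 ± 0.03 in Myh11-Cre aortae and 0.0895 ± 0.0215 in Wild Type aortae, and Prdm16 had 0.0829 ± 0.022 in Itga8-Cre aortae, 0.0733 ± 0.0109 in Myh11-Cre aortae and 0.0799 ± 0.0207 in Wild Type aortae. The genotypes overlapped for all 4 of these genes.

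In total, 4 of the 9 genes were higher without overlap in Itga8-Cre and 5 of 9 in Myh11-Cre when divided by Adipoq. Over all 19412 genes the same held for 18.7% in Itga8-Cre and 9.69% in Myh11-Cre, and the denominator itself had a lower mean in both Cre lines. Divided by Plin1 the counts were again 4 and 5 of 9, where 4.72% and 9.6% of all genes were higher without overlap. Set against the mean log2 CPM of the 12 general fat cell markers they were also 4 and 5 of 9, beside 13.0% and 15.9% of all genes. Lower without overlap were 0 of the 9 genes in either line, against 0.118% and 2.3% of all genes for Adipoq. Without Itga8-Cre 2, the library with the least Adipoq and Ucp1, 6 of the 9 genes were higher without overlap in Itga8-Cre, beside 20.4% of all genes. Without Itga8-Cre 1 there were 4 of 9, but 72.8% of all genes, and without Wild Type 2 there were 4 of 9 and 34% of all genes. In Myh11-Cre there were 5 of 9 without Myh11-Cre 1, beside 58.1% of all genes, and 5 of 9 without Wild Type 2, beside 18.3%. Without mouse 1 of either Cre line the share of the 9 genes was thus below the share of all genes. Between the Cre lines, 0 of the 9 genes were apart in either direction, where 4.81% of all genes were higher and 0.144% lower in Itga8-Cre.

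Several of the 9 genes varied together over the 9 libraries. Pairs among Ucp1, Elovl3, Gk, Cox8b and Cox7a1 had Pearson's r of log2 CPM from 0.814 (Cox7a1 and Gk) to 0.981 (Ucp1 and Gk), and all 10 of these pairs passed by r at a Benjamini-Hochberg adjusted permutation p over the 36 pairs of the 9 genes. By Spearman's rho 7 of the 10 passed, and Cox7a1 did not pass with Ucp1 or Elovl3 (adjusted permutation p = 0.0765 for each) or with Gk (0.0948). For Ucp1 and Gk, Spearman's rho was 0.983, with an exact permutation p of 3.86e-05 for r (adjusted 0.00126) and 4.96e-05 for rho (adjusted 0.00179). Leaving out the 2 libraries farthest from the median of the second gene, r was 0.682 to 0.971 in these 10 pairs.

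Dio2 and Ppargc1a formed another pair, with r of 0.887 and rho of 0.9 (exact permutation p of 0.00107 and 0.00203, adjusted 0.00482 and 0.00913). Their r was 0.671 without the 2 libraries farthest from the median of Ppargc1a. Ucp1 did not pass with Ppargc1a (r = 0.169, adjusted permutation p = 0.841; rho = 0.533, adjusted 0.221), but that r was 0.583 without Myh11-Cre 3 and Wild Type 1, the 2 libraries farthest from the median of Ppargc1a, and 0.519 with genotype means removed (adjusted permutation p = 0.111). Nor did it pass with Prdm16 (r = -0.06, adjusted permutation p = 0.938; rho = -0.1), where r was -0.12 without the 2 farthest libraries. Cidea passed only with Gk (r = 0.781, adjusted permutation p = 0.0346), not by rho (0.75, adjusted permutation p = 0.0765), and that r was 0.504 without the 2 farthest libraries. After the mean of each genotype was removed, 0 of the 36 pairs passed, while 15 had an unadjusted permutation p under 0.05. The 216 pairings within genotypes allow no p under 0.00463, too coarse for 1 pair alone to pass adjustment over 36. The lack of a pass therefore does not show that the genes stopped varying together within genotypes. For Ucp1 and Gk, r was then 0.987 with an adjusted p of 0.0556 (exact permutation within genotypes, 216 pairings), the smallest of the 36 and shared by Ucp1 with Elovl3 and by Elovl3 with Gk. Cidea then had r of 0.965 with Ucp1, 0.936 with Gk and 0.916 with Elovl3, above the 0.807 of Cox7a1 with Elovl3, so within genotypes it was not set apart from these genes. For Dio2 and Ppargc1a it was 0.894 (adjusted permutation p = 0.0909).

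**Figure D4:**
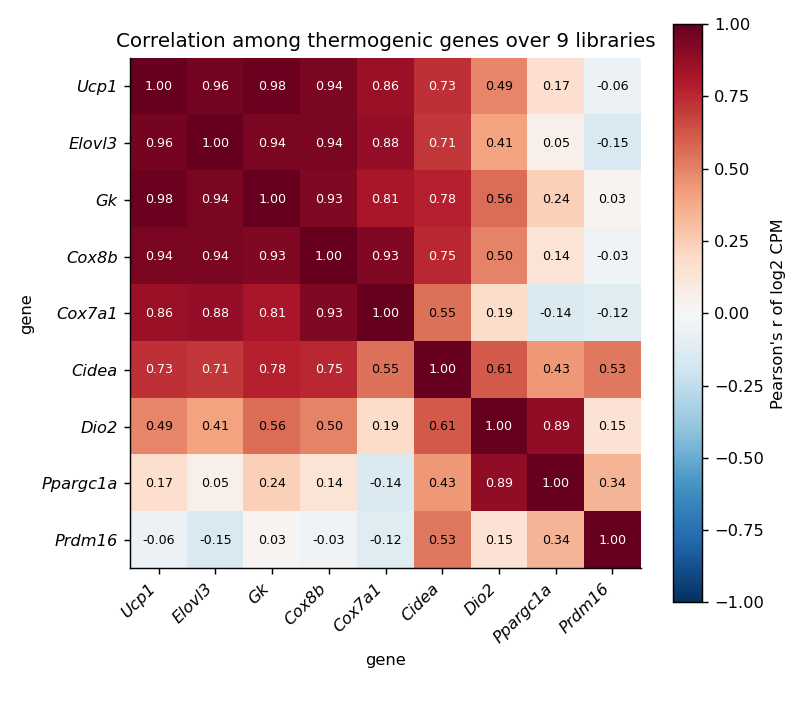
Pearson's r of log2 CPM between each pair of the 9 tested thermogenic genes over 9 libraries (color scale from -1 to 1). Ucp1, Elovl3, Gk, Cox8b and Cox7a1 form a block with r of 0.814 to 0.981, and Dio2 with Ppargc1a had 0.887.

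Promoter sequences of 4 genes are shown because Ucp1 with Gk, and Dio2 with Ppargc1a, had the highest r of all pairs and the highest r outside the pairs of those 5 genes. They run from 250 bases before to 50 bases after the RefSeq start in GRCm38.p6, 5′ to 3′ on the strand of the gene, and 8 of the 10 genes had an entry. Capitals mark TGACG, the core of the cyclic AMP response element, the full element TGACGTCA, AGGTCA, the core motif of nuclear receptors, and TATAAA, all on either strand. TGACG is contained in TGACGTCA, on both strands. The regions are chr8:83290098-83290397 on the plus strand for Ucp1, and on the minus strand chrX:85776770-85777069 for Gk, chr12:90738989-90739288 for Dio2 and chr5:51567676-51567975 for Ppargc1a. The RefSeq start of Dio2 lies 600 bases upstream of the GENCODE M21 start.
Ucp1: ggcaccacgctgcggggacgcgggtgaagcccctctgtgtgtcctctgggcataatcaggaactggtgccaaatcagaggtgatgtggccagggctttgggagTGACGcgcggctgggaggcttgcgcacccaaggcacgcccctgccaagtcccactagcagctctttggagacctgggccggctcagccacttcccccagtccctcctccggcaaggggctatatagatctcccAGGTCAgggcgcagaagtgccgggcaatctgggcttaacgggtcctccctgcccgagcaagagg
Gk: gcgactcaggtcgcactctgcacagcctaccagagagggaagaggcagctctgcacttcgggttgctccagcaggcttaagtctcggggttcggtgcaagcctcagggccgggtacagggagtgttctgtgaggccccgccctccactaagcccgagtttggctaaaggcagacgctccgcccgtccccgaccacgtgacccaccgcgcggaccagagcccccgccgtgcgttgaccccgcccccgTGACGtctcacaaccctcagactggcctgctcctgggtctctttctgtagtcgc
Dio2: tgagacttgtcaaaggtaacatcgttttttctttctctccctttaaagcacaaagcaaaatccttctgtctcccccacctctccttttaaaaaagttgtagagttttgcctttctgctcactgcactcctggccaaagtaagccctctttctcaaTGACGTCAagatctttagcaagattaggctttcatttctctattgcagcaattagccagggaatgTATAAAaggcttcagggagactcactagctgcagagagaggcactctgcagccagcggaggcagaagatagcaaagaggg
Ppargc1a: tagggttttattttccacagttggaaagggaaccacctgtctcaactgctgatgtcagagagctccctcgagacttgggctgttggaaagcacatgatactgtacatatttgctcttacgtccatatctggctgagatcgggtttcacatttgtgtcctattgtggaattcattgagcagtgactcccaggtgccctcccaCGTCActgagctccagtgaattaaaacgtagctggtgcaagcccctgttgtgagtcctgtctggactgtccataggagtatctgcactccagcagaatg

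Each of these 4 windows holds TGACG, with its first base at -147 in Ucp1, -4 in Gk, -95 and, on the opposite strand, -92 in Dio2 and -49 in Ppargc1a, counted from the start site along the strand of the gene. In Ppargc1a the match is on the opposite strand and reads CGTCA. Of the 8 promoters with an entry these were the 4 that hold it, where 21.0% of 27025 promoters of the same length do. Dio2 alone holds the full TGACGTCA, found in 1.88% of all promoters. AGGTCA is in Ucp1 at -14 and in 4335 of the 27025 promoters. TATAAA is in Dio2 at -30 and in Cox8b at 5, after the start, and in 14.2% of all promoters. A match of letters is a description and not a binding site.

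Among all genes, those most like Ucp1 were sought by r of log2 CPM over the 9 libraries, among 15409 genes outside the set with a mean of at least 1 CPM. The 10 highest ran from 0.979 to 0.995, beside a median r of -0.04 and a 99th percentile of 0.946. Among them were genes of mitochondria, a reading made after their names were seen. Ndufb6, a subunit of respiratory complex I, had r of 0.99, Tomm22, an import receptor of the outer membrane, 0.982, the mitochondrial ribosomal protein Mrps16 0.982, Aurkaip1 0.981 and the mitochondrial translation factor Guf1 0.979. Pgp, the phosphatase of phosphoglycolate and glycerol phosphate, had the highest r at 0.995, and Spsb3, Cops9, Ppdpf and Tmem41b made up the rest. Pgp had 46.1, 24.4 and 36.8 CPM in the Itga8-Cre mice, 44.6, 31.4 and 38.6 CPM in the Myh11-Cre mice and 30.8, 26.02 and 27.6 CPM in the Wild Type mice. The range of Pgp was narrow beside that of Ucp1. These r share the libraries and their depth and are given as a description.

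Ucp1 varied with genes of the respiratory chain. With the mean log2 CPM of 21 nuclear respiratory chain genes, r was 0.935 and rho 0.933, with exact permutation p of 6.06e-05 and 0.00075, adjusted 0.00218 and 0.009 over 36 relations of the 9 genes with 4 list scores. It was 0.845 without the 2 libraries farthest from the median of the score. With the score of 12 general fat cell markers, r of Ucp1 was 0.443 and rho 0.6 (adjusted permutation p of 0.422 and 0.249). The difference between these correlations was not tested. Cidea had r of 0.91 and rho of 0.933 with that fat score (adjusted permutation p of 0.00224 and 0.009), and 0.843 without the 2 farthest libraries. Elovl3, Cox8b, Cox7a1, Gk and Cidea also passed with the respiratory chain score by r (0.855 to 0.962), Cidea not by rho (0.6, adjusted permutation p = 0.249). None of the 9 genes passed with the scores of fast skeletal muscle or smooth muscle. For fast skeletal muscle, r of some genes depended on the 2 libraries farthest from the median of the score, Itga8-Cre 1 and Myh11-Cre 1. Without them r turned to 0.924 for Cox7a1 (-0.109 with all 9), 0.721 for Cox8b (-0.244 with all), 0.747 for Elovl3 (-0.343 with all), 0.709 for Ucp1 (-0.43 with all) and 0.532 for Gk (-0.435 with all). It stayed negative for Cidea (-0.154), Dio2 (-0.106), Ppargc1a (-0.36) and Prdm16 (-0.652). No p was computed without these libraries. After genotype means were removed, r of Ucp1 was 0.985 with the respiratory chain and 0.901 with the fat score, and 0 of the 36 relations passed adjustment. Of these relations 6 had an unadjusted permutation p under 0.05, and the limit set by 216 pairings held here too.

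**Figure D5:**
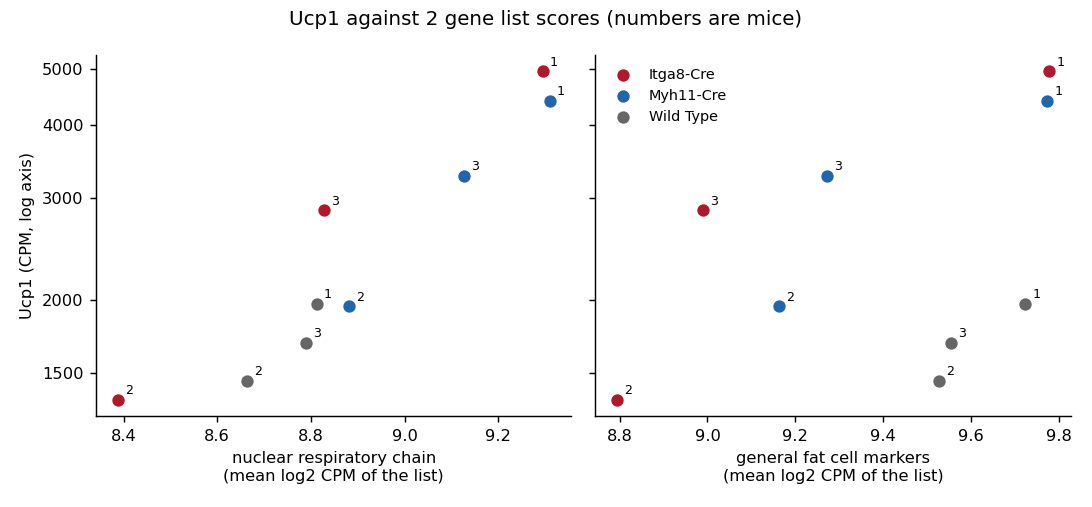
Ucp1 in CPM (vertical axis, log scale) against the mean log2 CPM of nuclear respiratory chain genes (left) and of general fat cell markers (right) in 9 libraries, colored by genotype and numbered by mouse. Ucp1 is higher where the left score is higher (r = 0.935), and on the right (r = 0.443) Itga8-Cre 3 and Myh11-Cre 3, at 2857 and 3276 CPM, lie above and to the left of all 3 Wild Type libraries, at 1454 to 1971 CPM.

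Other genes of the heat-producing pathway were read from lists. Over all lists and comparisons edgeR called 0 genes. Among genes of signal input, Adrb1, the beta-1 adrenergic receptor, had the smallest p against Wild Type in both lines and does not stand for the list. It had 12.4, 8.99 and 13.5 CPM in the Itga8-Cre mice, 13.6, 10.7 and 12.1 CPM in the Myh11-Cre mice and 24.8, 14.8 and 19.1 CPM in the Wild Type mice. Both Cre lines lay below Wild Type without overlap, as did 5.37% of all genes in Itga8-Cre and 14.7% in Myh11-Cre. Its log2 fold change was -0.75 (SE 0.22, edgeR adjusted p = 0.699) in Itga8-Cre and -0.69 (SE 0.21, adjusted p = 0.229) in Myh11-Cre. Of 15 tested genes of beta-adrenergic and cyclic AMP signalling, 4 were higher and 11 lower in Itga8-Cre (median -0.09), and 5 were higher and 10 lower in Myh11-Cre (median -0.05). DESeq2 called 0 of them.

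Among 16 regulators of the brown fat program, 6 were higher and 10 lower in Itga8-Cre (median -0.14), and 5 were higher and 11 lower in Myh11-Cre (median -0.13). Ebf2, a factor that marks brown fat precursors, had the smallest p in Itga8-Cre, with means of 43.6 CPM in Itga8-Cre aortae, 54.2 CPM in Myh11-Cre aortae and 63.2 CPM in Wild Type aortae (log2 fold change -0.54, SE 0.2, in Itga8-Cre). Tfam, which transcribes and packages mitochondrial DNA, had the smallest p in Myh11-Cre and went against most of the list. It averaged 38.7 CPM in Itga8-Cre aortae, 40.0 CPM in Myh11-Cre aortae and 33.1 CPM in Wild Type aortae. Both Cre lines lay above Wild Type without overlap, as did 5.76% of all genes in Itga8-Cre and 11.3% in Myh11-Cre. Its log2 fold change was 0.22 (SE 0.11, edgeR adjusted p = 0.699) in Itga8-Cre and 0.27 (SE 0.11, adjusted p = 0.275) in Myh11-Cre. Of 8 tested thyroid hormone genes, 3 were higher and 5 lower in each line, and the log2 fold change of Thra, a thyroid hormone receptor, was -0.33 (SE 0.15) for Itga8-Cre and -0.29 (SE 0.15) for Myh11-Cre.

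Most fuel genes had higher means in the Cre lines, none of them called by edgeR. Of 30 genes of lipolysis and fatty acid oxidation, 19 were higher in Itga8-Cre (median log2 fold change 0.08) and 25 in Myh11-Cre (median 0.27). Fabp3, a fatty acid binding protein of muscle and brown fat, had 187.3, 129.9 and 177.1 CPM in the Itga8-Cre mice, 152.8, 180.9 and 297.9 CPM in the Myh11-Cre mice and 67.8, 127.6 and 127.6 CPM in the Wild Type mice. It lay above Wild Type without overlap in both lines, as did 5.76% of all genes in Itga8-Cre and 11.3% in Myh11-Cre. Its log2 fold change was 0.61 (SE 0.32, edgeR adjusted p = 0.699) in Itga8-Cre and 0.97 (SE 0.32, adjusted p = 0.232) in Myh11-Cre. Acsl5, which activates fatty acids, averaged 305 CPM in Itga8-Cre aortae, 376 CPM in Myh11-Cre aortae and 179 CPM in Wild Type aortae. It overlapped Wild Type in Itga8-Cre, where mouse 2 had 121.5 CPM, below all Wild Type libraries, and did not overlap in Myh11-Cre. The log2 fold change of Acsl5 was 0.77 (SE 0.48, edgeR adjusted p = 0.707) in Itga8-Cre and 1.07 (SE 0.48, adjusted p = 0.311) in Myh11-Cre. All 21 nuclear respiratory chain genes were higher in Myh11-Cre (median 0.35) and 20 of 21 in Itga8-Cre (median 0.13), and 13 of 21 did not overlap Wild Type in Myh11-Cre, where 11.3% of all genes were higher in this way. In Itga8-Cre 0 of the 21 lay above Wild Type without overlap, where 5.76% of all genes did. Muscle shares the fuel and respiratory genes, and the part of its uneven RNA was not tested.

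Of 12 genes listed for heat cycles that bypass Ucp1, RNA of 7 was higher in Itga8-Cre (median 0.21) and of 10 in Myh11-Cre (median 0.41). The cycles themselves were not measured, and the part of the uneven muscle RNA in this list was not tested. Sln, sarcolipin, which uncouples the muscle calcium pump, was called by DESeq2 in Myh11-Cre (adjusted p = 0.0453; edgeR log2 fold change 1.77, SE 0.65, adjusted p = 0.257). It had 39.3, 182.6 and 49.0 CPM in the Itga8-Cre mice, 57.1, 195.6 and 185.7 CPM in the Myh11-Cre mice and 39.0, 55.9 and 33.9 CPM in the Wild Type mice. The 3 libraries with the most Sln were those with the highest sums of slow and cardiac muscle markers, 7555 to 8621 CPM. Of 17 tested relatives of the 10 genes, 8 were higher and 9 lower in Itga8-Cre (median -0.153), and 10 were higher and 7 lower in Myh11-Cre (median 0.105). Ucp2, a relative of Ucp1 found in many cells including leukocytes, had the smallest p of them in Itga8-Cre and does not stand for the list. It averaged 100.2 CPM in Itga8-Cre aortae, 88.6 CPM in Myh11-Cre aortae and 65.2 CPM in Wild Type aortae. Both Cre lines lay above Wild Type without overlap, as did 5.76% of all genes in Itga8-Cre and 11.3% in Myh11-Cre. Its log2 fold change was 0.62 (SE 0.17, edgeR adjusted p = 0.699) in Itga8-Cre and 0.44 (SE 0.17, adjusted p = 0.269) in Myh11-Cre. Beside Ucp2, the summed level of 8 macrophage markers was 519 to 1025 CPM in Itga8-Cre aortae, 353 to 979 CPM in Myh11-Cre aortae and 340 to 470 CPM in Wild Type aortae. The part of macrophage RNA in Ucp2 was not tested.

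Among further markers of brown fat were genes with lower means in the Cre lines. Ntrk3, a neurotrophin receptor listed among them, had 145.3, 113.4 and 98.7 CPM in the Itga8-Cre mice, 149.4, 101.7 and 105.9 CPM in the Myh11-Cre mice and 182.2, 188.2 and 238.8 CPM in the Wild Type mice. Both lines lay below Wild Type without overlap, as did 5.37% of all genes in Itga8-Cre and 14.7% in Myh11-Cre. The log2 fold change of Ntrk3 was -0.77 (SE 0.2) in each line. DESeq2 called it in Myh11-Cre (adjusted p = 0.0253) and not in Itga8-Cre (0.125), while the edgeR adjusted p was 0.218 in Myh11-Cre and 0.699 in Itga8-Cre. The difference between the lines was not called by edgeR either. P2rx5, an ATP-gated channel used as a brown fat surface marker, averaged 25.6 CPM in Itga8-Cre aortae, 31.4 CPM in Myh11-Cre aortae and 38.9 CPM in Wild Type aortae. Both lines again lay below Wild Type without overlap, with the same shares of all genes. Its log2 fold change was -0.6 (SE 0.13, edgeR adjusted p = 0.699) in Itga8-Cre and -0.31 (SE 0.13, adjusted p = 0.296) in Myh11-Cre. Otop1 averaged 168 CPM in Itga8-Cre aortae, 187 CPM in Myh11-Cre aortae and 142 CPM in Wild Type aortae and overlapped. Of 9 such markers, 2 were higher and 7 lower in Itga8-Cre, and 5 were higher and 4 lower in Myh11-Cre.

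Markers of beige and white fat had small sums. The summed level of 7 beige markers was 29.8 to 31.9 CPM in Itga8-Cre aortae, 31.1 to 38.7 CPM in Myh11-Cre aortae and 29.3 to 31.5 CPM in Wild Type aortae. The 9 white fat markers summed to 98.9 to 148.2 CPM in Itga8-Cre aortae, 99.3 to 167.8 CPM in Myh11-Cre aortae and 152.6 to 183.7 CPM in Wild Type aortae. Sncg, gamma-synuclein, which white fat and neurons express, averaged 36.3 CPM in Itga8-Cre aortae, 20.6 CPM in Myh11-Cre aortae and 50.5 CPM in Wild Type aortae, and DESeq2 called it in Myh11-Cre (adjusted p = 0.00733, edgeR log2 fold change -1.29, SE 0.32, adjusted p = 0.218). Of 7 tested secreted factors of brown fat, 5 were lower in Itga8-Cre and 3 in Myh11-Cre, and the log2 fold change of Vegfa, a vessel growth factor, was -0.38 (SE 0.22) for Itga8-Cre and -0.33 (SE 0.22) for Myh11-Cre.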

How the data were processed

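Poly(A) RNA of frozen mouse aortae was sequenced as stranded single-end 75 nt libraries, per the labels' protocols. The authors deposited counts per gene, used for every test, and a signal table, found equal to the counts divided by median-of-ratios size factors. Per the submitters' processing notes the build was GRCm38.p6, and STAR 2.7.0f, featureCounts of Subread 1.6.4, DESeq2, Salmon 0.13.1 and fastp 0.20.0 are named with no role. No source used here gives the annotation or whether counting used strand, so overlapping genes are uncertain.

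Counts of 9 libraries were fitted together in edgeR 4.0.16 (R 4.3.3) after filterByExpr (19412 of 55453 genes kept) and TMM scaling, with robust quasi-likelihood tests, Benjamini-Hochberg adjustment over all tested genes and a threshold of 0.05. DESeq2 1.42.0 and limma 3.58.1 were run beside it. The pipeline was tested on simulated data before use. Ratios and correlations used exact permutation tests.

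The genes, lists and tests were chosen with earlier results of these data known. Named genes were the 10 genes, Acta2, Acta1, Adipoq and Rag1, up to 3 genes of each list with the smallest p and a mean of at least 1 CPM, and the 10 genes most correlated with Ucp1. Outside this rule, Plin1, Cox8a, Cox7a2, Pitx3, Gm26512 and the values of a gene in a comparison other than the one that named it were chosen after their values were seen. Intervals from counts cover counting error only.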

Additional observations from a re-analysis of the deposited data

How the results depend on the processing

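edgeR called 0 of the thermogenic genes in each comparison with size factors in place of TMM, without the low-count filter, in fits of 2 groups, with the replicate block, and without each of the 9 libraries, and so did limma voom and DESeq2. Over all genes, where edgeR called 0, DESeq2 called 30 in Itga8-Cre against Wild Type, 828 in Myh11-Cre against Wild Type and 19 between the lines, and edgeR called 1 in Myh11-Cre without the low-count filter and 1 with the replicate block. The block changed no call on the thermogenic genes, but it lowered the SE against Wild Type of every tested one except Prdm16. For Ucp1 the SE went from 0.467 to 0.269 in Itga8-Cre and to 0.267 in Myh11-Cre. An unadjusted edgeR p under 0.05 was reached by 1 and 4 of the 9 genes with it, against 0 and 2 without. Residual correlation was 0.045 to 0.39 in the 9 same-numbered pairs and -0.342 to 0.246 in pairs of different number. Of 9 libraries, 7 correlated best with their own mouse number. The main tests still left the libraries unpaired, because only 5 of 9 same-numbered pairs exceeded 0.1. That choice does not show that equal numbers are unrelated.

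The Ucp1 to Adipoq difference (log2) was 0.99 to 1.5 in Itga8-Cre and 0.93 to 1.27 in Myh11-Cre against Wild Type without single libraries. Between the lines it was -0.099 to 0.413 without single libraries and -0.018 with Plin1. Genes higher without overlap in the ratio numbered 4 to 6, 5 to 6 and 0 to 2 in the 3 comparisons without single libraries, and genes lower without overlap 0 to 1 in Myh11-Cre against Wild Type. Of the score relations 7 passed adjustment, and of the gene pairs 12. With genotype means removed, 0 and 0 did, where the 216 pairings allow no p under 0.00463. An unadjusted permutation p under 0.05 was then reached by 6 and 15 of them. The cause was not tested.

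No sign of an edgeR log2 fold change turned under other settings, and 18 turned without a single library, none of them called. Against Wild Type, ranges without single libraries were -0.57 to 0.11 for Cidea, -0.94 to 0.19 for Dio2 and -0.012 to 0.549 for Cox8b in Itga8-Cre, and -0.215 to 0.301 for Cidea, -0.63 to 0.43 for Dio2 and -0.46 to 0.13 for Ppargc1a in Myh11-Cre. Between the lines they were -0.61 to 0.27 for Ucp1, -0.669 to 0.076 for Cidea, -0.605 to 0.075 for Dio2, -0.997 to 0.444 for Elovl3, -0.489 to 0.073 for Cox8b, -0.301 to 0.057 for Prdm16 and -0.47 to 0.24 for Gk. Only 3 mice a genotype and 1 tissue sample each limit what these comparisons can detect.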
